A study of Raphidocelis subcapitata with 45 samples.

Results

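Between 784 and 1960 µg/L of sertraline hydrochloride, neighbouring nominal concentrations in a 24 h exposure series, transcripts of 1750 genes of the green alga Raphidocelis subcapitata changed. The comparison sets the 5 libraries at 1960 µg/L (replicates A to E) against the 5 libraries at 784 µg/L (replicates A to E), which are 10 of the 41 libraries in the table, and leaves the solvent control out of the test. Members were chosen by the nominal concentration in the sample labels and not by any measured value. Cells of 1 algal stock, labelled Carolina Biological and in exponential growth, received sertraline in Woods Hole MBL medium at 24°C under constant light. All wells, the control included, contained solvent, but the sources used here disagree on its content and round the highest concentrations differently, so concentrations are given as in the sample labels. RNA came from homogenates of pooled wells. No label says that the letters stand for separate cultures, so every p-value given rests on the spread among libraries, which may be technical.

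Raphidocelis subcapitata is a unicellular freshwater alga used as a standard species in aquatic toxicity testing, because growth of a whole population can be followed in small volumes. Sertraline is an antidepressant that blocks the serotonin transporter in animals. It is a lipophilic amine, a property that lets a compound enter membranes and gather in acidic compartments of cells. RNA was read from the 3′ end with a kit that primes on poly(A) tails, so reads come from the ends of transcripts.

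Values are the authors' normalised expression on a logarithmic scale, taken to be log2, so that a difference of 1 stands for 2-fold. The deposited table named genes by identifier only, and no product names were used here. The results are therefore given by groups of genes defined by direction, size and level, with 4 genes named as the strongest cases. The median level of a library was 4.62 to 4.66 at 1960 µg/L, against 4.57 to 4.61 at 784 µg/L and 4.55 to 4.73 in the whole series. Read depth per library is unknown, so that no interval from counts could be given.

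At 1960 µg/L, 839 genes (11.5%) rose and 911 (12.5%) fell relative to 784 µg/L, together 24% of the 7291 genes tested (limma, adjusted p under 0.05 by the Benjamini-Hochberg method). Among the largest changes rises outnumbered falls. The risen genes included 275 with a log2 change of at least 1 (3.77% of all genes tested), and the fallen genes 159 (2.18%). A change of 2 or more was seen in 59 risen and 3 fallen genes. The median change was 0.81 among the risen and -0.67 among the fallen genes, with a median standard error of 0.21 over all genes. Over all 7291 genes the median change was -0.0044, and 90% of the genes lay between -0.72 and 0.87. The authors' normalisation can itself place this centre near 0. Adding 8 to each value on the linear scale before the logarithm damps changes of low genes. It left 131 rises and 79 falls of at least 1. With genes under a mean of 4 in the step's libraries left out, 169 rises and 135 falls were of at least 1, a smaller excess of rises.

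In 1154 genes (15.8%) the 5 libraries at 1960 µg/L all lay on one side of the 5 at 784 µg/L, above them in 529 (7.26%) and below them in 625 (8.57%). Of these, 504 were among the risen and 579 among the fallen genes. The other called genes overlapped in at least 1 library. Every gene with a log2 change of at least 1 in either direction passed the threshold, and the smallest changes that passed were 0.20 among rises and -0.21 among falls.

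Rsub_06720 had the largest rise of the step. Its log2 level was 6.95, 7.86, 6.12, 7.70 and 7.11 in replicates A to E at 1960 µg/L, against 2.70, 2.89, 2.58, 2.67 and 2.95 in A to E at 784 µg/L. All 5 libraries at 1960 µg/L stood far above all 5 at 784 µg/L, and they also spread over a wider range. The log2 change was 4.39 ± 0.22 (SE, n = 5 each), a 20.9-fold rise (limma adjusted p = 6.46e-20). With 8 added on the linear scale before the logarithm its log2 change was 3.35 (limma adjusted p = 2.32e-18). The gene was weakly expressed at 784 µg/L (2.76 ± 0.16, SD, n = 5). It was lower there than in the control, where it had 3.91 ± 0.84 (SD, n = 5), by -1.15 ± 0.27 (SE, limma adjusted p = 0.00611). The 784 µg/L libraries helped to choose the gene, so this is a description only, and the p does not allow for that choice. Control C, at 2.86, lay below B and E of 784 µg/L. At 4900 µg/L, in libraries that did not choose the gene, its level was 5.62 ± 0.74 (SD, n = 5), which is 1.71 ± 0.36 (SE) above the control (limma adjusted p = 0.00108). Its level was 6.26 ± 0.29 at 12249 µg/L and 7.33 ± 0.24 at 30623 µg/L (SD, n = 3 each).

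Rsub_11992 had the next largest rise. Its log2 level in replicates A to E was 8.52, 8.48, 7.71, 8.97 and 8.45 at 1960 µg/L, against 4.11, 4.40, 4.21, 4.26 and 4.32 at 784 µg/L. The groups were separated by more than 3 units, and C was the lowest library at 1960 µg/L, as it was for Rsub_06720. The log2 change was 4.17 ± 0.15 (SE, n = 5 each), a 17.9-fold rise (limma adjusted p = 9.45e-25). From the control up to 784 µg/L its group means stayed between 4.26 and 4.41. Unlike Rsub_06720 it was not called at 784 µg/L against the control, with a change of -0.14 ± 0.17 (SE, limma adjusted p = 0.759). This too is a description only, since the 784 µg/L libraries helped to choose both genes.

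Rsub_09256 had the largest fall. It was at 4.75, 4.58, 4.87, 4.89 and 4.99 on the log2 scale in replicates A to E at 1960 µg/L, against 7.36, 7.23, 7.68, 7.19 and 7.24 in A to E at 784 µg/L. The groups did not overlap, and the spread was of similar size in both (SD 0.16 at 1960 and 0.20 at 784 µg/L). The log2 change was -2.52 ± 0.14 (SE, n = 5 each, limma adjusted p = 1.97e-18). In the control and at 50, 125 and 314 µg/L its means lay between 7.11 and 7.27, and it was not called against the control at any of these 3 concentrations. Nor was it called at 784 µg/L, which is a description only, since the 784 µg/L libraries helped to choose the gene. At 4900, 12249 and 30623 µg/L it was -2.00 ± 0.18, -2.20 ± 0.19 and -2.47 ± 0.19 (SE) from the control, with limma adjusted p-values of 5.68e-08, 3.3e-09 and 2.62e-08.

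Rsub_05059 followed with a fall of -2.33 ± 0.13 (SE, n = 5 each, limma adjusted p = 2.66e-18). Its log2 level in replicates A to E was 5.00, 5.37, 5.20, 5.04 and 5.16 at 1960 µg/L, against 7.46, 7.70, 7.54, 7.41 and 7.30 at 784 µg/L. Again the groups did not overlap. At 314 µg/L the gene had been above the control, by 0.41 ± 0.08 (SE, limma adjusted p = 0.00315). It was -2.14 ± 0.14, -1.73 ± 0.17 and -2.10 ± 0.18 (SE) from the control at 4900, 12249 and 30623 µg/L, each past the threshold in limma's test (adjusted p = 6.92e-10, 1.7e-08 and 6.8e-08).

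**Figure D1:**
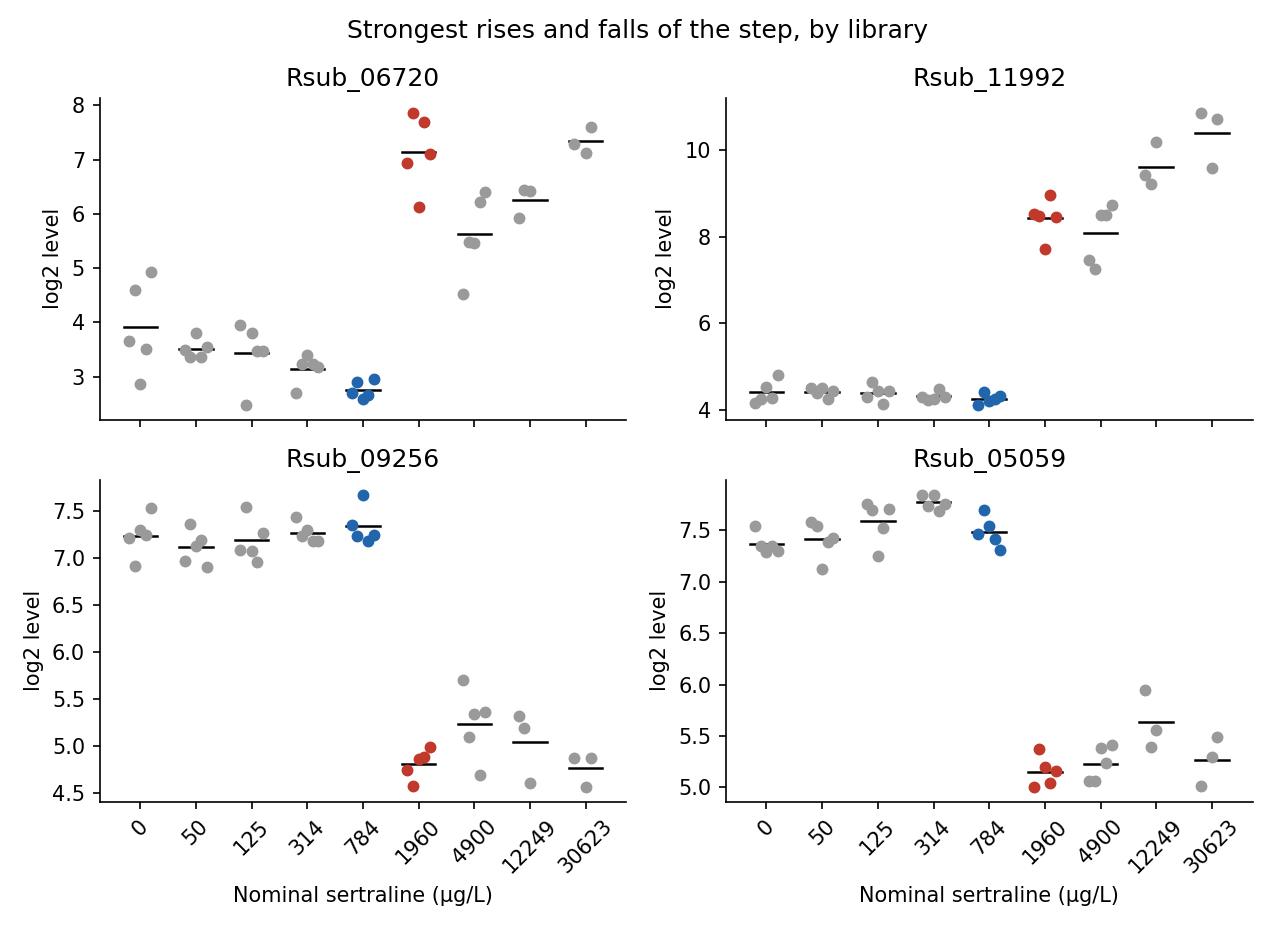
Log2 level (y axis) of the genes with the largest rises (Rsub_06720, Rsub_11992) and the largest falls (Rsub_09256, Rsub_05059) of the step, in each of 41 libraries by nominal sertraline concentration in µg/L (x axis, categories). Each point is a library, horizontal lines are group means, 1960 µg/L is red and 784 µg/L blue. Each of the 4 genes has its 5 libraries at 1960 µg/L clear of its 5 at 784 µg/L.

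Called genes of low expression were mostly risen, and called genes of high expression mostly fallen. Genes were divided into terciles by their mean log2 level in the control and the 50, 125 and 314 µg/L libraries, none of which enter the step. In the lowest tercile (means up to 4.02) 352 of 2431 genes rose and 52 fell. In the middle tercile 231 of 2430 rose and 178 fell. In the highest tercile (means from 5.19) 256 of 2430 rose and 681 fell, which is 10.5% and 28.0% of it. Low genes thus made up most of the large rises, with 159 of the 275 rises of at least 1 in the lowest tercile and 50 in the highest. High genes made up most of the large falls, with 108 of 159 in the highest tercile and 13 in the lowest. The median change was 0.15, 0.0028 and -0.14 from the lowest to the highest tercile.

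Levels within a library spanned a narrower range at 1960 µg/L, which is another view of low genes rising and high genes falling and no separate result. The interquartile range over genes of a 1960 µg/L library averaged 1.73 ± 0.06 (SD, n = 5) and that of a 784 µg/L library 1.87 ± 0.04 (SD, n = 5) on the log2 scale. When all 10 libraries were scaled to the same quantiles, which makes these ranges equal, the lowest tercile had 276 rises and 81 falls and the highest 302 rises and 579 falls.

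**Figure D2:**
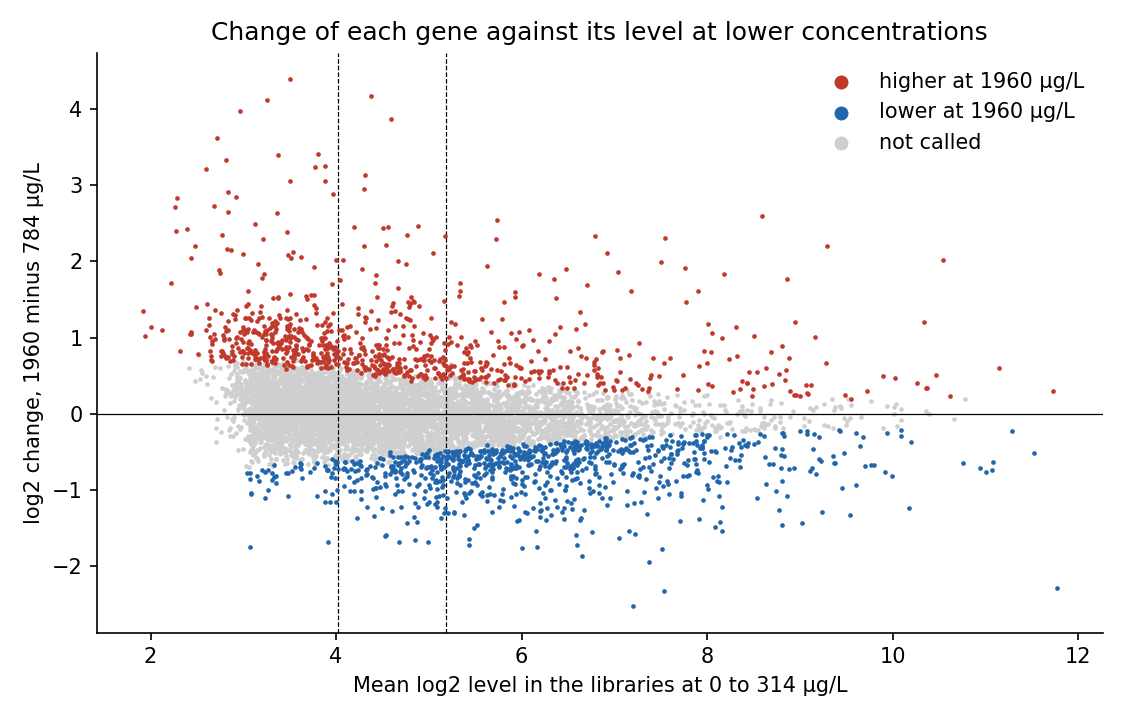
Log2 change of each of 7291 genes, 1960 minus 784 µg/L (y axis), against its mean log2 level in the libraries at 0 to 314 µg/L (x axis), with risen genes red, fallen genes blue and genes not called grey. Dashed lines mark the tercile limits. Rises prevail at low levels, with 352 rises and 52 falls in the lowest tercile, and falls at high levels, with 256 rises and 681 falls in the highest.

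Libraries also differed more from each other at 1960 µg/L. The root mean square distance of a library, over all genes, to the mean of the other 4 of its group averaged 0.42 ± 0.03 for 1960 µg/L and 0.33 ± 0.02 for 784 µg/L (SD, n = 5 each). The groups did not overlap, with 0.38 to 0.46 at 1960 and 0.30 to 0.34 at 784 µg/L (two-sided exact permutation p = 0.00794). Each distance uses the other 4 libraries of its group, so the 5 distances of a group depend on each other. The permutation shuffled them as if independent, so the p for distances may be too small. Library medians differed too, averaging 4.63 ± 0.02 for 1960 µg/L and 4.58 ± 0.01 for 784 µg/L (SD, n = 5 each) with the same exact permutation p. This is the smallest p that 5 against 5 allows, and adjusted over the 2 tests each p was 0.00794. Of all genes, 68.9% had the larger SD at 1960 µg/L, and so did 64.1% of the risen and 73.4% of the fallen genes.

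How the step compares with the others was asked in 1 limma fit over all 41 libraries, which shares 1 spread among the groups. The mean distance of a library to the others of its group was 0.29 to 0.33 in groups up to 784 µg/L. It was 0.42 at 1960 and 0.47 at 4900 µg/L. At 12249 and 30623 µg/L it was 0.51 and 0.61, over 3 libraries each, and a mean of fewer libraries also lengthens the distance. The shared spread thus makes calls harder to reach in the lower steps and easier in the steps above 1960 µg/L. Each step from 50 µg/L up raised the nominal concentration about 2.5-fold. In that fit 1623 genes (22.3%) were called between 1960 and 784 µg/L. None was called in the steps up to 50, 125 and 314 µg/L (91, 86 and 173 genes had an unadjusted p under 0.05). Between 784 and 314 µg/L 26 (0.357%) were called, a count that was 12, 13, 9, 16 and 17 without A, B, C, D or E of 784 µg/L in turn. The step that followed, between 4900 and 1960 µg/L, had 1567 genes (21.5%). There were 1557 (21.4%) between 12249 and 4900 and 2089 (28.7%) between 30623 and 12249 µg/L. Both groups of the last step, and the higher group of the step before it, had 3 libraries each. The root mean square change over all genes was 0.17, 0.17, 0.19, 0.22, 0.53, 0.46, 0.52 and 0.60 from the lowest to the highest step. The largest single rise of the 8 steps, 4.39, lay in the step to 1960 µg/L, and the largest single fall, -2.70, in the step to 12249 µg/L, against -2.52 in the step to 1960 µg/L.

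Differences between steps were tested gene by gene in the same fit. The change from 784 to 1960 µg/L differed from the change from 125 to 314 µg/L, a step that shares no library with it, in 889 genes (12.2%), of which 417 were more positive and 472 more negative. It differed from the step just below, from 314 to 784 µg/L, in 557 genes (7.64%). It differed from the step just above, from 1960 to 4900 µg/L, in 1076 genes (14.8%), more positive in 556 and more negative in 520.

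**Figure D3:**
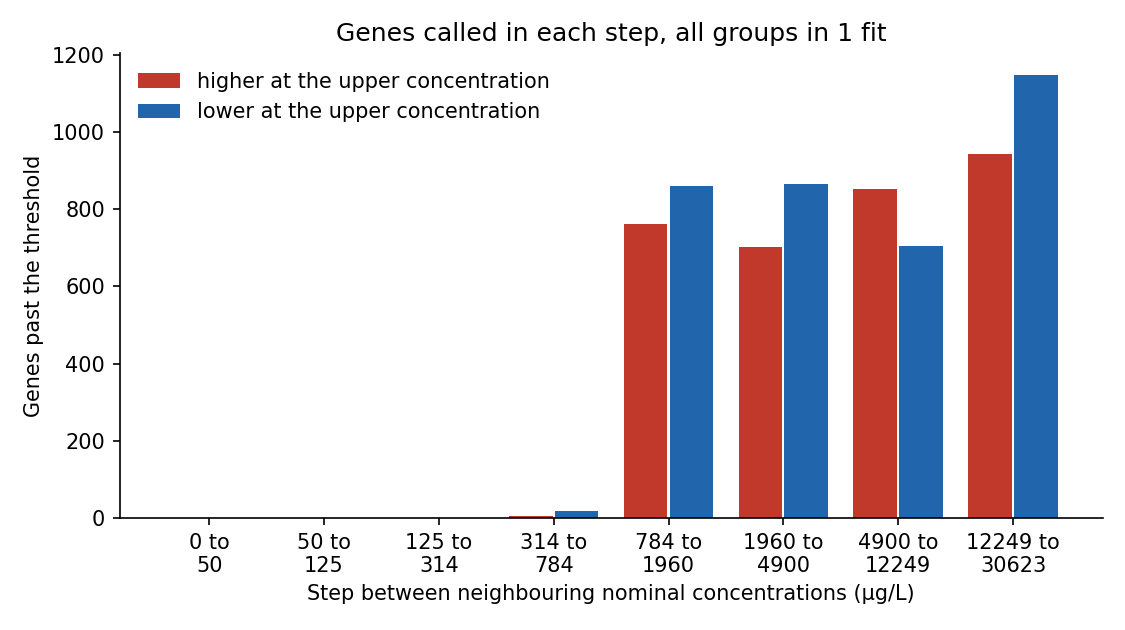
Number of genes past an adjusted p of 0.05 in limma (y axis) in each step between neighbouring nominal concentrations in µg/L (x axis), from 1 fit over all groups. Red bars count genes higher and blue bars genes lower at the upper concentration. In this fit the step from 784 to 1960 µg/L is the first with many calls, 762 higher and 861 lower, after 26 in all in the step below it. Its shared spread makes calls harder to reach in the lower steps and easier in the steps above 1960 µg/L.

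The line from the mean of the 784 µg/L libraries (0) to the mean of the 1960 µg/L libraries (1), over all genes, was used to place every library. Libraries of these groups were placed with themselves left out of their group mean, and the 1960 µg/L libraries then averaged 0.88 ± 0.09 and the 784 µg/L libraries 0.07 ± 0.04 (SD, n = 5 each). Libraries of the control, 50, 125 and 314 µg/L stood at 0.19 ± 0.04, 0.19 ± 0.04, 0.14 ± 0.08 and 0.08 ± 0.01 (SD, n = 5 each). Those of 4900, 12249 and 30623 µg/L averaged 0.88 ± 0.03 (SD, n = 5), 0.91 ± 0.05 (SD, n = 3) and 1.04 ± 0.06 (SD, n = 3). No library lay between 0.24 and 0.78. At 1960 µg/L replicate D stood highest, at 1.01, and C lowest, at 0.78. The control libraries, at 0.15 to 0.24, were all nearer to the 1960 µg/L end than the 784 µg/L libraries, at 0.03 to 0.11.

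**Figure D4:**
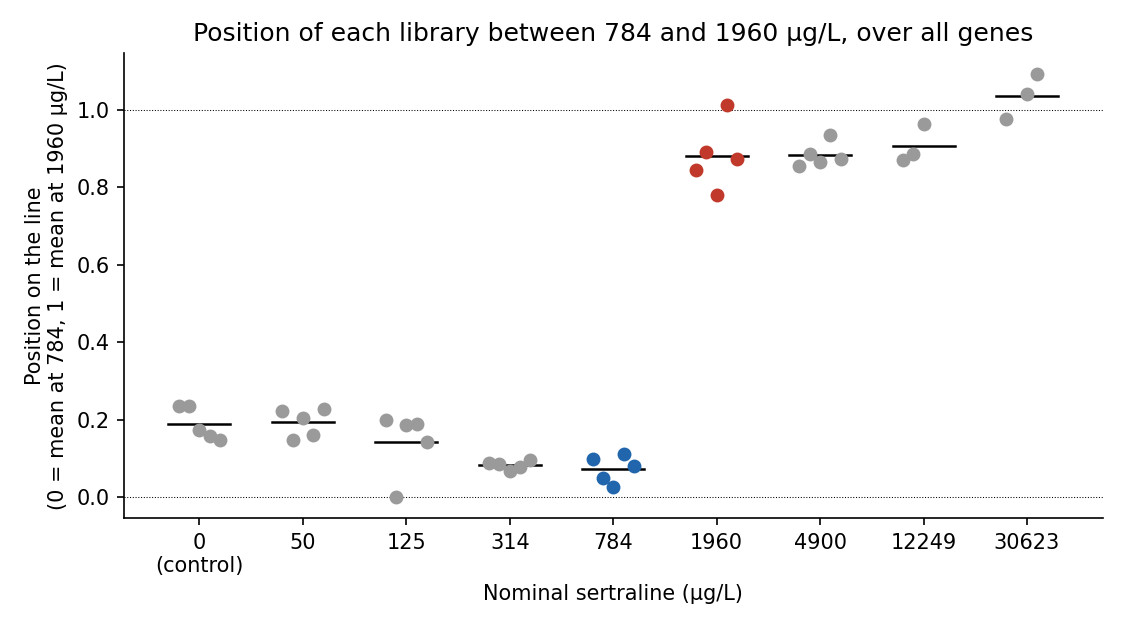
Position of each of 41 libraries between the means of the 784 µg/L (0) and the 1960 µg/L libraries (1), over all genes (y axis, no unit), by nominal concentration in µg/L (x axis, categories). Points are libraries, lines are group means, 1960 µg/L is red and 784 µg/L blue, both placed with the library itself left out. All libraries up to 784 µg/L lie at or below 0.24 and all from 1960 µg/L up at or above 0.78.

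Part of the risen genes had been lower at 314 µg/L, in libraries that the step did not use. Of the 839 risen genes, 79 (9.42%) were lower at 314 µg/L than in the control and 5 (0.596%) higher, where 1.73% and 0.549% of all tested genes were called lower and higher. These 79 were 62.7% of the 126 genes lower at 314 µg/L, and of the other genes among the 126, 11 fell in the step and 36 were not called in it. Of all tested genes, 11.5% rose and 12.5% fell in the step. In the fit over all groups 37 of the 762 genes risen in that fit were lower at 314 µg/L. At 314 µg/L, 25 of the 911 fallen genes (2.74%) were above and 11 (1.21%) below the control. In the fit over all groups these counts were 2 and 1, and without an intensity trend 1 and 2. They also depended on single libraries. The 25 became 15 without control B, B of 314 or C of 314 µg/L and 44 without control E, the 11 became 6, 4 and 6 without control D, D of 314 or E of 314 µg/L, and the 5 became 2, 2 and 3 without C, D or E of 314 µg/L. At 50 and 125 µg/L limma called none of the risen or fallen genes against the control, nor any other gene. Before adjustment, counting p-values under 0.05, the 50 µg/L libraries had 164 genes above and 139 below the control, and the 125 µg/L libraries 259 above and 304 below it. Of the step's genes, 76 risen genes were lower and 22 higher at 125 µg/L, and 18 were lower and 24 higher at 50 µg/L. For the fallen genes these counts were 33 lower and 59 higher at 125 µg/L and 20 lower and 18 higher at 50 µg/L.

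Genes lower at 314 µg/L were found among the large rises too. They were 47 of the 275 genes that rose by at least 1 (17.1%) and 15 of the 59 that rose by at least 2 (25.4%), against 9.42% of all risen genes, of which both are parts. By level, 48 of 256 risen genes of the highest tercile were lower at 314 µg/L (18.8%), where 2.8% of all genes of that tercile were. In the lowest tercile 11 of 352 were (3.12%), beside 1.15% of all genes there. These shares were not tested against each other.

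Values of the step's own groups against the control are a description only, since they share the 784 or 1960 µg/L libraries with the step and the control libraries with each other. Of the 839 risen genes, 540 were called higher and 15 lower than the control at 1960 µg/L, where 10.7% and 12.4% of all tested genes were. At 784 µg/L, 13 of them were called higher and 126 lower, where 2.15% and 3.8% of all tested genes were. Their median difference from the control was 0.65 at 1960 and -0.15 at 784 µg/L. Of the 911 fallen genes, 609 were called lower and 2 higher than the control at 1960 µg/L, and 31 lower and 85 higher at 784 µg/L. Their median difference from the control was -0.57 at 1960 and 0.11 at 784 µg/L. The control mean was nearer to the 784 than to the 1960 µg/L mean in 75.9% of the risen and 83.9% of the fallen genes.

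Above the step the genes were followed at 4900, 12249 and 30623 µg/L against the control, in libraries that the step did not use. At 4900 µg/L, 382 of the 839 risen genes (45.5%) were higher than the control and 57 (6.79%) lower, where 13.5% and 16.3% of all tested genes were. Of the 911 fallen genes, 530 (58.2%) were lower and 19 (2.09%) higher. The median difference from the control was 0.50 (quartiles 0.04 and 1.00) over the risen and -0.58 (quartiles -1.03 and -0.25) over the fallen genes, beside -0.02 over all genes. In single libraries at 4900 µg/L these medians lay between 0.41 and 0.56 for the risen and between -0.63 and -0.58 for the fallen genes.

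At 12249 µg/L, 427 of the risen genes (50.9%) were above and 158 (18.8%) below the control, where 23.1% and 25% of all tested genes were. Their median was 0.61 with quartiles -0.31 and 1.37. Of the fallen genes 541 (59.4%) were lower and 92 (10.1%) higher. At 30623 µg/L, 434 risen genes (51.7%) were higher and 132 (15.7%) lower, where 22.8% and 24.6% of all tested genes were, and 584 fallen genes (64.1%) were lower and 25 (2.74%) higher. All comparisons with the control share its 5 libraries.

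The genes with the largest changes were followed in the same way. Of the 159 genes that fell by at least 1, 136 (85.5%) were below and 1 above the control at 4900 µg/L by limma's test, as were 130 and 0 at 30623 µg/L (136 and 2 before adjustment). Of all tested genes, 16.3% were below and 13.5% above the control at 4900 µg/L. At 30623 µg/L these shares were 24.6% and 22.8%. Of the 59 genes that rose by 2 or more, 41 (69.5%) were above and 0 below the control at 4900 µg/L (44 and 1 before adjustment), where 13.5% and 16.3% of all tested genes were. At 12249 µg/L 42 (71.2%) were above and 15 (25.4%) below it, where 23.1% and 25% of all tested genes were. Risen genes are given by level as well. At 30623 µg/L, 256 of the 352 risen genes of the lowest tercile were higher and 1 was lower, where 37.6% and 2.88% of all genes of that tercile were called. In the highest tercile 75 of 256 were higher and 98 lower (29.3% and 38.3%), where 10.9% and 52.6% of all genes of that tercile were called. None of these shares was tested against another.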

How the data were processed

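The deposited table holds the authors' normalised values, taken to be log2, for 7291 genes in 41 of the 45 labelled libraries. Per the submitters' processing notes, STAR 2.7.10a, featureCounts 2.0.6 and DESeq2 were among the tools used, with fastp 0.23.2, bcl2fastq 2.20.0 and SAMtools 1.15.1. Not given in the sources used here are their order and settings, the use of molecular identifiers, the genome build and the transform. Folds assume a log base of 2, and a transform that shrinks weakly measured genes would understate their changes. The values hold no counts, so depth is unknown.

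The 10 libraries at 1960 and 784 µg/L entered 1 limma fit (limma 3.58.1, R 4.3.3) with an intensity trend in eBayes and 8 residual degrees of freedom (33.5 prior), with no filter or pseudocount. Each comparison with the control used its own groups alone. Steps between neighbours and their differences came from 1 fit over all groups. All tests were two-sided, adjusted by the Benjamini-Hochberg method over all 7291 genes, with a threshold of 0.05. The 2-group fit was run on simulated data with planted changes, only to check that the code finds large ones. That run does not measure errors among the real calls. Named genes are the 2 highest and 2 lowest changes among called genes whose groups did not overlap. Product-name gene lists could not be matched to identifiers and were not tested. The comparison and the rules were chosen with earlier results of these data known. No pair of the 10 libraries was a copy (highest correlation 0.965). Figures were drawn with matplotlib 3.10.9 in Python 3.11.15.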

Additional observations from a re-analysis of the deposited data

Results flagged for a closer look

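Among 63 sets of 5 values, each 1 measure in 1 group, 6 had a library far from its 4 companions, and chance would give about 3.15. At 1960 µg/L, replicate D had the lowest median over the fallen genes, -0.68 against the control mean, with the others between -0.57 and -0.53. Without that library 147 genes fell by at least 1 in place of 159.

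At 125 µg/L, replicate B stood at 0.00052 on the line from 784 to 1960 µg/L, where the others stood at 0.14 to 0.20, and its median over the risen genes was -0.16, against -0.04 to -0.0023 in the others. Replicate A at 314 µg/L was at a root mean square distance of 0.32 from the other libraries of its group, which had 0.27 to 0.29. For Rsub_11992, D of 314 µg/L was at 4.49 with its companions at 4.24 to 4.31. Control replicate A had 7.55 for Rsub_05059, against 7.29 to 7.35.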

How the results depend on the processing

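The counts of risen and fallen genes stayed within 1.5 times of 839 and 911 under all 9 other settings and without any single library of the step (684 to 819 risen, 758 to 899 fallen). Of the 1750 genes, 1545 kept their call with all groups in 1 fit and 1744 with the replicate block. That block gave 893 risen and 962 fallen genes, but the letters share little: deviations of same-lettered libraries correlated at 0.01 to 0.17, and at 1960 µg/L only B and C correlated best with their own letter. With genes under a mean of 4 left out, 595 rose and 866 fell. That filter left 169 rises and 135 falls of at least 1, and 101 rises and 4 falls in the lowest tercile. For the step it used the mean of the step's own 10 libraries, and the lowest tercile ends at 4.02. It thus favours genes of that tercile that the step raised, so their split is set in part by the filter. Of the 595 risen genes, 284 were higher at 12249 and 242 at 30623 µg/L, in place of 427 and 434 of the 839. In each comparison with the control the filter used the mean of that comparison's own libraries. Calls between 784 and 314 µg/L were then 13. Adding 8 left 131 rises and 79 falls of at least 1. Quantile scaling gave 81 falls in the lowest tercile, 9 risen genes higher at 314 and 44 fallen genes higher at 30623 µg/L. Without an intensity trend 737 genes rose and 705 fell, and the fallen genes higher at 4900, 12249 and 30623 µg/L were 9, 40 and 16. The cause was not tested. At 314 µg/L, risen genes were 0 higher and 37 lower and fallen genes 2 higher and 1 lower with all groups in 1 fit, and 1, 48, 1 and 2 without the trend. Leaving out single libraries, added after the data were seen for comparisons with the control, moved these 4 counts over 2 to 7, 66 to 92, 15 to 44 and 4 to 13, and the calls between 784 and 314 µg/L over 9 to 27. The changes of the 4 named genes kept sign and call in every setting, but with 8 added the rise of Rsub_06720 was 3.35 in place of 4.39. Depth, being unknown, limits what can be said of low genes.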
